A study of Mus musculus with 67 samples.

Results

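The chromatin of 7 mouse genes was followed, the homeobox genes Msx1, Msx2 and Msx3 and the zinc finger genes Zic1, Zic2, Zic4 and Zic5, in progenitors of the neural tube made from embryonic stem cells. The members were the accessible elements of the deposited table that its annotation assigns to 1 of these genes by the nearest transcription start site (TSS), 54 of 111638 elements and 7 of 20787 genes. CaTS-ATAC, in which fixed cells are transposed, stained for intracellular transcription factors and sorted, was run on 67 samples of HM1 cells in 25 conditions, 17 with 3 replicates and 8 with 2. The reads recovered in elements ranged from 9298160 to 29985325 (median 20254011). All cultures were grown on Matrigel in N2B27 with bFGF and the Porcupine inhibitor LGK to day 2, then with bFGF, CHIR99021, SB-431542 and DMH1 to day 3, and SB-431542 and DMH1 block activin and BMP receptors. NMPs (neuromesodermal progenitors, 3 samples) were taken at day 3, before retinoic acid (RA) and with SAG, an agonist of the Hedgehog receptor component Smoothened, at 0 nM. From day 3 all other cultures received 100 nM RA with SAG at 0, 10, 100 or 500 nM. Progenitors labelled p0-1 came from 0 and 10 nM SAG (6, 6 and 5 samples at days 4, 5 and 6), p2 from 10 and 100 nM (6, 6 and 6), pMN from 100 and 500 nM (6, 5 and 4) and p3 from 100 and 500 nM (5, 5 and 4). The p0-1 samples share no SAG concentration with those of p3 or pMN, so cell type and concentration cannot be told apart in these comparisons. The NMP samples differ from the others in day, RA and cell type together.

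Msx genes encode homeodomain repressors that BMP signals from the roof plate and the overlying ectoderm induce in the dorsal neural tube, where they take part in neural crest and roof plate formation. Zic genes encode zinc finger factors related to the Gli proteins. They are expressed in the early neural plate, become restricted to the dorsal neural tube as the ventral side receives Sonic hedgehog, and are needed for neural tube closure and cerebellar growth.

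Zic4 held 20 of the elements, Zic1 15, Msx2 7, Msx1 4, Msx3 4, Zic5 3 and Zic2 1. Elements are named below by gene and by the distance in bp of their center from the TSS, negative when upstream. Of the 54, 38 were intergenic, 8 lay in introns, 6 in exons, 1 at a promoter and 1 at a transcript end. There were 15 further than 100 kb from their TSS, all at Zic1 and Zic4, which lie side by side on chromosome 9 (91358058-91365768 and 91365631-91389351, mm10). Apart from the 7 genes, no protein-coding gene of the reference lies between any of the 54 elements and its gene, and for the Zic1 and Zic4 elements the nearest one other than these 7 was between 491 and 957 kb away. Another 3 elements annotated to these genes had no values in the table. A mean above 100 normalized counts over all samples was met by 21 of the 54, of which Msx2, Zic1 and Zic4 had 4 each, Msx3 and Zic5 3 each, Msx1 2 and Zic2 1.

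The elements read at the starts of marker genes, called TSS elements below, followed the labels for some markers and not for others. Those read for Shh, Meox1 and Msgn1 lay further away, centered at -2800, -2722 and -12699 bp. T, Cdx2 and Nkx1-2 were highest in NMPs, with means of 1175, 3686 and 1492 normalized counts. At day 6 the Dbx1 element stood at 2549 in p0-1 and 631 in p3, the Olig2 element at 2325 in pMN and 408 in p0-1, and the Foxa2 element at 1662 in p3 and 261 in p0-1. Of the p2 markers, Foxn4 stood at 295 in p2, 237 in p0-1 and 204 in pMN, while Irx3 was highest in p0-1, at 3014. Of the other p3 markers, Nkx2-9 stood at 2091 in pMN and 1914 in p3 at day 6, Sim1 at 638 in p3, 670.2 in p0-1 and 663 in p2, and no element was annotated to Nkx2-2. Markers of cells that also express Msx and Zic genes, 4 of neural crest (Foxd3 the highest at day 6 in p0-1 and p3) and 4 of roof plate (Lmx1a the highest), all had TSS elements above 0, with sums at day 6 of 1028 to 1274 in p0-1 and 759 to 786 in p3 for neural crest and 939 to 1119.6 and 714 to 1052 for roof plate. Mesoderm markers (3 of 3 present, Tbx6 the highest in p0-1 and Meox1 in p3, 0 at zero) summed to 1138 to 1336 in p0-1 and 1569 to 1802 in p3, and neuron markers (3 of 3, Tubb3 the highest, 0 at zero) to 2473 to 3579 in p0-1, 2415 to 5417 in p2, 3685 to 4577 in pMN and 2841 to 3965 in p3. All progenitors were gated on SOX2, p0-1 by PAX6 without NKX6-1, and the part of any of these cells in the results was not tested. Some samples were less alike than the rest. The 3 samples of p0-1 at day 4 in 10 nM SAG had mean correlations with each other of 0.925, 0.927 and 0.949 across elements, and replicate 3 of p2 at day 6 in 100 nM had 0.917, against a median of 0.971 over all samples. Calls of named members that are lost or gained without the 10 nM samples of day 4 are given below.

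Of the member elements nearest the start sites, that of Zic5 was called between p0-1 and p3, as was the element over the Zic2 start, which the annotation gives to another gene. Larger differences between these cell types lay at distal elements. A pair of elements upstream of Msx1 opened in p3 by day 6 (Msx1 -27016 and Msx1 -24670), and at Msx1 -27016 p2 and pMN also lay above p0-1. Several distal elements of Zic1 and Zic4 were open in p0-1 and closed in p3 at that day, and Zic1 +197625 did the reverse. At Msx3 -9089 and Zic5 +1242, p2 and pMN lay between p0-1 and p3 in their means. In bulk samples, fewer cells with an open element and less accessibility per cell cannot be told apart. Log2 differences are on the variance-stabilized scale, which compresses differences between low counts.

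Msx1, a roof plate and neural crest gene and a direct target of BMP signals, lost accessibility at its start site on leaving the NMP state. The TSS element, Msx1 -831 (chr5:37823217-37827615), had 1913, 1932 and 1942 normalized counts in the NMP samples, and the p0-1 samples of day 4 lay between 683 and 1609 with a median of 924. Every p0-1 sample lay below every NMP sample, with a log2 difference of -1.03 (SE 0.23, adjusted p = 0.00117). The call was lost when each sample was centered on its median (-0.76) and without replicate 1 (-0.81) or replicate 2 (-1.02). The TSS elements of some other genes were also lower in p0-1 at day 4 than in NMPs. Median sums were 1428 against 2850.1 for roof plate, 1161 against 2185 for neural crest and 2228 against 4116 for neurons. For the p0-1 markers the median sum was 4898 against 2785. It was 877 against 874 for the mesoderm markers, of which Meox1 and Msgn1 were read at -2722 and -12699 bp. By day 6 the order of means was p0-1 910.4, p2 786, p3 775 and pMN 721, and neighbors in that order overlapped.

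The fit from NMPs to p0-1 called 6 of 21 elements, where 40.4% of all 31744 tested elements were called, and that from NMPs to p3 called 8 of 21, against 42.0%. Both fits use the same 3 NMP samples. With p0-1 of 0 nM alone, 10 of 21 were called, against 14287 of 31744 of all tested elements, so the members' share lay below or near the background. The elements gained there were Msx3 +246 (-1.08), Zic1 +137909 (1.38), Zic4 +13555 (-1.06) and Zic1 +12317 (lower, adjusted p = 1.2e-04), the last pair named after their values were seen. The median over all tested elements moved by -0.18 from NMPs to p0-1 and by -0.18 from NMPs to p3, and by 0.24 and 0.15 from day 4 to day 6 in p0-1 and p3. With samples centered on their medians over the tested elements these became 0.10, 0.14, -0.02 and -0.05, so centering turned the shift from NMPs to the other sign rather than removing it, and calls lost with centering from NMPs depend on which level is taken as 0.

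The element Msx1 -27016 (chr5:37851205-37851997, intergenic) was nearly closed at the start. It had 10.9, 12.1 and 14.0 normalized counts in NMPs, and at day 4 lay between 14.1 and 20.0 with a median of 16.8 in p0-1 and at 15.2, 27.3, 40.4, 40.5 and 43.4 in p3. At day 6 the p0-1 samples had 27.1, 31.5, 43.6, 62.5 and 95.8, the pMN samples 132, 147, 222 and 304 and the p3 samples 383, 424, 431 and 445, with p2 between 147 and 385 with a median of 269. All p2, pMN and p3 samples thus lay above all p0-1 samples, while p3, p2 and pMN overlapped in that order of means (421, 265 and 201, against 52.1 in p0-1). The p0-1 minus p3 log2 difference was -2.28 (SE 0.19, adjusted p = 3.9e-07) at day 5 and -2.85 (SE 0.27, adjusted p = 1.3e-05) at day 6. At day 4 it was -0.63 and not called (adjusted p = 0.0753), and the change of the difference from day 4 to day 6 was -2.22 (SE 0.35, adjusted p = 1.3e-04), so that the gap widened. In p3 the element rose from day 4 to day 6 (log2 difference 3.31, SE 0.21, adjusted p = 9.9e-08). The rise in p0-1 was 1.09 (SE 0.25, adjusted p = 0.00300), and its call was lost with centered samples (0.83), with only the 0 nM samples of day 4 (1.13) and without replicate 1 (0.94) or replicate 3 (0.90).

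Within a single SAG concentration the same element separated p2 from p0-1. At 10 nM on day 6, p2 had 311, 362 and 385 normalized counts and p0-1 31.5, 62.5 and 95.8, and the 3 p2 samples lay above the 3 p0-1 samples. The p2 samples from 100 nM had 147, 159.7 and 227, all below those from 10 nM. Over both concentrations the p0-1 minus p2 difference was -2.13 (SE 0.32, adjusted p = 0.00145), the 1 call among 21 elements, against 3.21% of all tested elements, and it was lost without replicate 1 (-2.11) or replicate 2 (-1.84). Against pMN it was -1.77 (SE 0.33, adjusted p = 0.00344), also the 1 call of 21, against 8.8%, and was lost without replicate 2 (-1.82) or replicate 3 (-1.60). With the replicate number as a block, 2 of 21 elements were called against pMN, where 3361 of 31744 of all tested elements were called, a share near the members' own: Msx1 -27016 at -1.85 (SE 0.21, adjusted p = 3.2e-04) and Zic4 +18492 at 1.08 (SE 0.18, adjusted p = 0.00193). With the replicate numbers of the descriptions, the block called 1 of 21, Msx1 -27016, and not Zic4 +18492. At day 4 the fit against pMN in limma called 0 of 21 (3.55% of all tested elements), voom called 0 (1295 of 31744 of all), and without adjustment 5 reached p under 0.05, as did 7620 of all 31744. The fits against p2, pMN and p3 at day 6 share the p0-1 samples.

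The neighboring element Msx1 -24670 (chr5:37848879-37849632) had a mean of 59.6 over all samples, under the minimum, and was chosen after its values were seen, like the other elements under the minimum named below. It was most accessible in p3: at day 6 the 4 p3 samples had 137, 184, 354 and 525 normalized counts. The p0-1 samples had 22.0, 26.8, 33.9, 45.9 and 75.3 and the pMN samples 17.0, 31.1, 49.0 and 60.1, with p2 between 16.3 and 98.7 with a median of 31.0. The p3 samples did not overlap those of the other 3 types at day 6, whose means were 40.8, 40.7 and 39.3. In a fit of all elements of the table, its p0-1 minus p3 difference was -1.49 (SE 0.22, adjusted p = 3.4e-05) at day 5 and -2.47 (SE 0.37, adjusted p = 1.6e-04) at day 6, and p3 rose from day 4 to day 6 (log2 difference 1.65, SE 0.33, adjusted p = 7.8e-04). This fit called 9 of 54 at day 5 and 13 of 54 at day 6, against 19.2% and 24.5% of all elements. Of the genes active in floor plate, Shh was read at an element centered at -2800 bp, which stood at 280.2 in p3 and 67.4 in p0-1 at day 6. The TSS element of Foxa2, which is also a p3 marker here, is given above. The p3 cells were sorted as positive for SOX2 and NKX2-2 and negative for OLIG2. The authors reported little expression of floor plate markers in these cultures beside ones driven toward floor plate. A part of floor plate cells in the result was not tested here.

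Between p0-1 and p3 the filtered fits called 0 of 21 elements at day 4, 2 at day 5 and 4 at day 6, where 6.17%, 15.2% and 18.1% of all tested elements were called. The shares thus lay near the background. Without adjustment, 5 of 21 elements and 8399 of all 31744 had p under 0.05 in limma at day 4, where voom called 0 of 21 and 1861 of 31744 of all. The 2 calls at day 5 were Msx1 -27016 and Zic1 +137909, and Msx2 +7690 and Zic5 +1242 joined them at day 6.

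**Figure D1:**
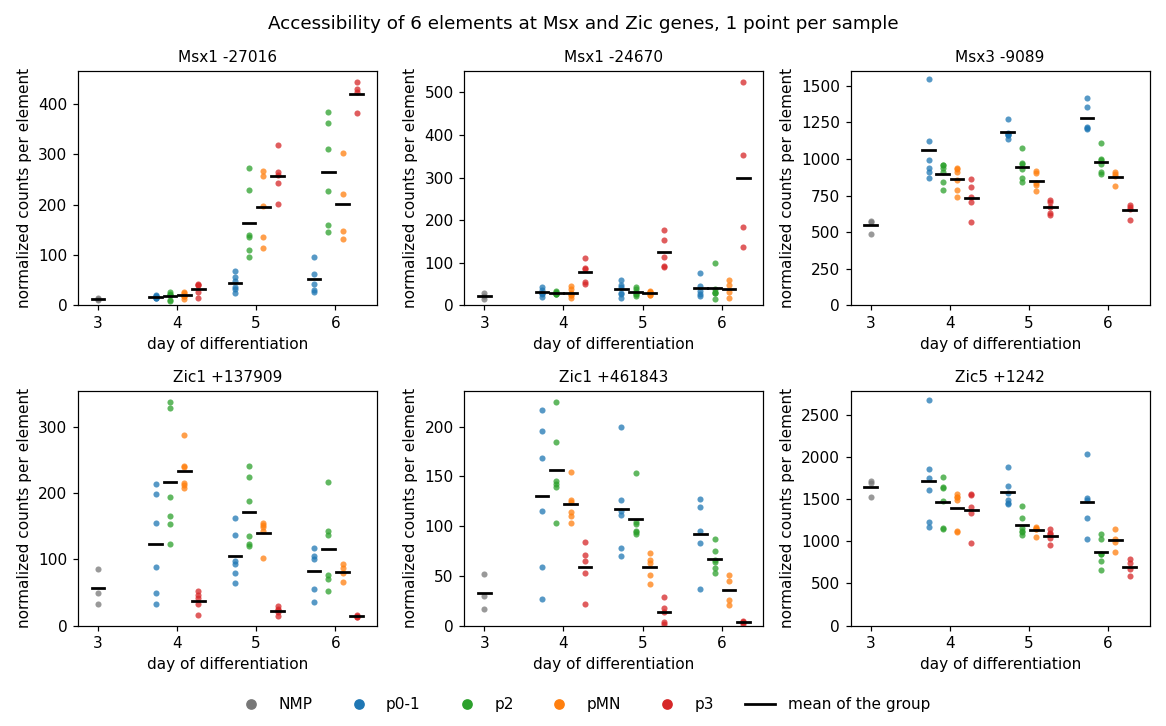
Normalized counts per element (vertical axis) against the day of differentiation (horizontal axis) for 6 elements, with 1 point per sample, colors for the sorted cell type and black bars for the mean of each group. At day 6 the p3 samples reach 445 at Msx1 -27016 and 525 at Msx1 -24670, while at Zic1 +461843 they lie between 1.65 and 4.86.

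Msx2, expressed beside Msx1 at the dorsal midline, kept an accessible start site in all cell types. The element Msx2 +118 (chr13:53472172-53473152, exon) had means of 709 ± 20.9 (SD, n = 3) in NMPs and 515 ± 30.1 (SD, n = 5), 562 ± 52.8 (SD, n = 6), 607 ± 39.5 (SD, n = 4) and 459 ± 53.9 (SD, n = 4) in p0-1, p2, pMN and p3 at day 6, and cell types next to each other in the order of means overlapped. Around it, Msx2 -3218 became less accessible on leaving the NMP state. It had 710.3, 741 and 843 normalized counts in NMPs and lay between 139 and 401 with a median of 202 in p0-1 at day 4. There was no overlap, and the log2 difference was -1.79 (SE 0.26, adjusted p = 3.6e-05). In p3 at day 4 the difference from NMPs was -1.85 (SE 0.15, adjusted p = 6.8e-09). Msx2 +7690 (chr13:53464438-53465742, intergenic) also lost accessibility in the same step and was later the only Msx2 element called between p0-1 and p3. It fell from 255 to 112 in p0-1 (log2 difference -1.15, SE 0.23, adjusted p = 5.4e-04), a call lost with centering (-0.87) and without replicate 1 (-0.99) or replicate 2 (-1.16), and p3 differed from NMPs at day 4 as well (log2 difference -1.17, SE 0.19, adjusted p = 2.9e-05), also lost with centering (-0.85). At day 6 the p0-1 samples had 132, 135, 143, 149.5 and 229 and the p3 samples 58.9, 60.2, 72.2 and 94.0, without overlap, and the difference was 1.02 (SE 0.20, adjusted p = 0.00192). The call was lost without replicate 3 (0.80) or replicate 2 (1.18) and with centered samples (0.91). Msx2 +10168 fell from 710.3 in NMPs to 345 in p3 (log2 difference -1.02, SE 0.19, adjusted p = 1.0e-04), a call lost with centering (-0.69) and without replicate 1 (-0.79).

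Msx3, whose expression in the mouse is confined to the dorsal neural tube, had an element upstream that was more accessible at day 6 than that at its start. Msx3 -9089 (chr7:140057668-140058686, intergenic), named after its values were seen, had 491, 569.7 and 579 normalized counts in NMPs. On day 6 it had 1206, 1209, 1219, 1353 and 1415 in p0-1, 817, 886, 900.0 and 913 in pMN and 584, 661, 671 and 688 in p3, and in p2 it lay between 895 and 1107 with a median of 979.8. The samples of p0-1 lay above all others, those of p3 below all others, and p2 and pMN overlapped. The p0-1 minus p3 differences of 0.81 (SE 0.05, adjusted p = 3.5e-08) at day 5 and 0.96 (SE 0.08, adjusted p = 4.0e-06) at day 6 passed the adjusted p but not the threshold of 1 on the log2 scale. Msx3 -13015 was likewise highest in p0-1 and lowest in p3 by its means at day 6, with 538 ± 232 (SD, n = 5) in p0-1 and 274 ± 23.9 (SD, n = 4) in p3, and its difference was 0.86 (SE 0.23, adjusted p = 0.0132), not called. From NMPs to p3 it fell (log2 difference -1.15, SE 0.12, adjusted p = 2.5e-07), a call lost with centering (-0.82). The start site element Msx3 +246 (chr7:140047738-140049946, exon) fell from 953 ± 140.2 (SD, n = 3) in NMPs to 460.3 ± 76.8 (SD, n = 5) in p3 (log2 difference -1.04, SE 0.14, adjusted p = 5.0e-06), which was lost with centering (-0.71) and without replicate 1 (-0.90). At day 6 its means were 320.3, 288, 253 and 232 in p0-1, p3, p2 and pMN, with overlap between neighbors.

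Zic1, which with Zic4 is needed for the growth of the cerebellum, has its start covered by Zic1 +559 (chr9:91364153-91366328), an element that also spans the reference start of Zic4. It had means of 974 ± 74.3 (SD, n = 3) in NMPs, 954 ± 279 (SD, n = 6) in p0-1 at day 4 and, at day 6, 763 ± 104 (SD, n = 5) in p0-1 and 568 ± 34.8 (SD, n = 4) in p3, and no comparison called it. Per kb of element, the levels at the member elements nearest the TSS in p0-1 at day 6 were 525 normalized counts for Msx2, 508 for Zic5, 351 for Zic1, 299 for Zic2, 207 for Msx1, 145 for Msx3 and 25.3 for Zic4. In p3 at day 6 they were 468, 242, 261, 188, 176, 130.4 and 25.9 in the same order of genes. For Zic2 and Zic4 these elements lie in introns: the element over the Zic2 start, outside the members, had 596 per kb in p0-1 and 251 in p3, and the start of Zic4 lies within Zic1 +559. Zic1 +3787, in intron 2, fell in p3 from 475 at day 4 to 213 at day 6 (log2 difference -1.09, SE 0.15, adjusted p = 4.1e-05), a call lost without replicate 3 (-0.99). It was 1 of 3 calls among 21 in that comparison, against 21.0% of all tested elements, beside Msx1 -27016 and Zic4 +9424 (log2 difference -1.05, SE 0.14, adjusted p = 5.1e-05), the last lost without replicate 2 (-0.90), and the all-element fit called 17 of 54, against 25.8%.

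Far downstream, Zic1 +137909 (chr9:91227038-91228743, intergenic) was open in p2, pMN and p0-1 and closed in p3 by day 6. At day 4 it lay between 209 and 287 with a median of 228 normalized counts in pMN, between 123 and 338 with a median of 180.1 in p2 and between 33.3 and 214 with a median of 122 in p0-1, while the p3 samples had 16.1, 32.2, 42.1, 46.6 and 52.5, overlapping p0-1 only. On day 6 the p3 samples had 12.7, 13.2, 14.6 and 16.5, the pMN samples 65.1, 79.8, 86.4 and 93.2, the p0-1 samples 35.3, 55.5, 100.2, 105 and 117, and p2 lay between 52.0 and 217 with a median of 107. Every p3 sample of day 6 lay below every sample of the other types, while p2, p0-1 and pMN overlapped. Between p0-1 and p3 the difference was 1.73 (SE 0.21, adjusted p = 1.2e-05) at day 5 and 1.80 (SE 0.29, adjusted p = 5.2e-04) at day 6, the latter lost without replicate 3 (1.73). At day 4 it was 1.26 (SE 0.40, adjusted p = 0.0472), not called over all samples and 1.82 (SE 0.32, adjusted p = 0.00121) with p0-1 of 0 nM alone, an alternative added after the data were seen.

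At the same locus Zic1 +461843 (chr9:90903587-90904326) closed in p3. It started on day 4 with 22.2, 53.1, 64.5, 71.0 and 84.0 normalized counts in p3 and between 27.1 and 217 with a median of 142 in p0-1. By day 6 the p3 samples had 1.65, 3.46, 4.07 and 4.86, the pMN samples 21.0, 26.1, 45.1 and 51.1 and the p0-1 samples 36.5, 83.3, 95.5, 119 and 127, with p2 between 53.0 and 86.6 with a median of 65.2. The 3 other types lay above p3 without overlap, pMN lay below p2, and p2 and p0-1 overlapped. In the fit of all elements the p0-1 minus p3 difference was 2.90 (SE 0.28, adjusted p = 4.6e-06) at day 6, and p3 fell from day 4 to day 6 (log2 difference -2.35, SE 0.27, adjusted p = 7.6e-06). The change of the difference over these days was 2.06 (SE 0.56, adjusted p = 0.00915). Its call was lost with the replicate block (1.91, or 2.06 with the numbers of the descriptions), with voom (3.51) and without replicate 2 (2.05) or replicate 3 (1.71).

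A different course was seen at Zic1 +401526 (chr9:90964120-90964426), which opened in p0-1. It had 2.42, 3.23 and 5.40 normalized counts in NMPs, lay between 22.4 and 72.0 with a median of 42.5 in p0-1 at day 4, and at day 6 had 183, 195, 206, 214 and 243 in p0-1, 53.8, 55.1, 59.2 and 71.2 in pMN and 35.9, 48.8, 49.5 and 83.2 in p3, with p2 between 86.0 and 122 with a median of 101. The p0-1 samples lay above all p2 samples, these above all pMN and p3 samples, and pMN and p3 overlapped. It rose by 1.98 (SE 0.21, adjusted p = 2.3e-06) in p0-1 from day 4 to day 6, and differed by 1.77 (SE 0.20, adjusted p = 1.4e-05) from p3 and by 1.61 (SE 0.14, adjusted p = 1.7e-05) from pMN at day 6. The change of the p0-1 against p3 difference was 1.80 (SE 0.30, adjusted p = 1.4e-04), and 1.41, not called, without replicate 3. Against pMN the all-element fit called 7 of 54, where 11.2% of all elements were called.

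The reverse pattern held for Zic1 +197625 (chr9:91167753-91168595). In p3 it had 15.2, 31.6, 32.2, 32.3 and 37.5 normalized counts at day 4 and 94.0, 94.7, 125 and 129 at day 6, while the p0-1 samples of day 6 had 2.35, 9.68, 10.5, 11.0 and 15.9, with no overlap. From p3 to p0-1 the difference was -2.62 (SE 0.23, adjusted p = 2.5e-06) at day 6, and p3 rose by 1.58 (SE 0.20, adjusted p = 2.2e-05) from day 4. Its change of difference, -1.37 (SE 0.32, adjusted p = 0.00287), was called and the call was lost with voom (-1.47) and without replicate 1 (-1.45), replicate 2 (-1.21) or replicate 3 (-1.50). Zic1 +531620 had 53.0, 71.4, 85.2, 93.2 and 106 in p0-1 and 8.74, 9.16, 11.5 and 16.5 in p3 at day 6, without overlap, a difference of 2.05 (SE 0.20, adjusted p = 5.9e-06). Its means were 74.5 in p2 and 54.3 in pMN. Neighbors in the order p0-1, p2 and pMN overlapped, and pMN lay above p3 without overlap. Zic1 +343372 was highest in pMN at day 6, at 34.1, 39.4, 47.9 and 58.4, above all other types, with p0-1 at 1.16, 1.98, 3.87, 5.89 and 11.0, and was called lower in p0-1 than in pMN (adjusted p = 9.5e-05), a call lost without replicate 3 (-1.68). Zic1 +325106 rose in p0-1, from a mean of 11.7 at day 4 to 159.6 at day 6 (log2 difference 2.88, SE 0.22, adjusted p = 1.2e-07), and in p3, from 14.2 to 87.0 (log2 difference 2.05, SE 0.29, adjusted p = 4.8e-05).

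**Figure D2:**
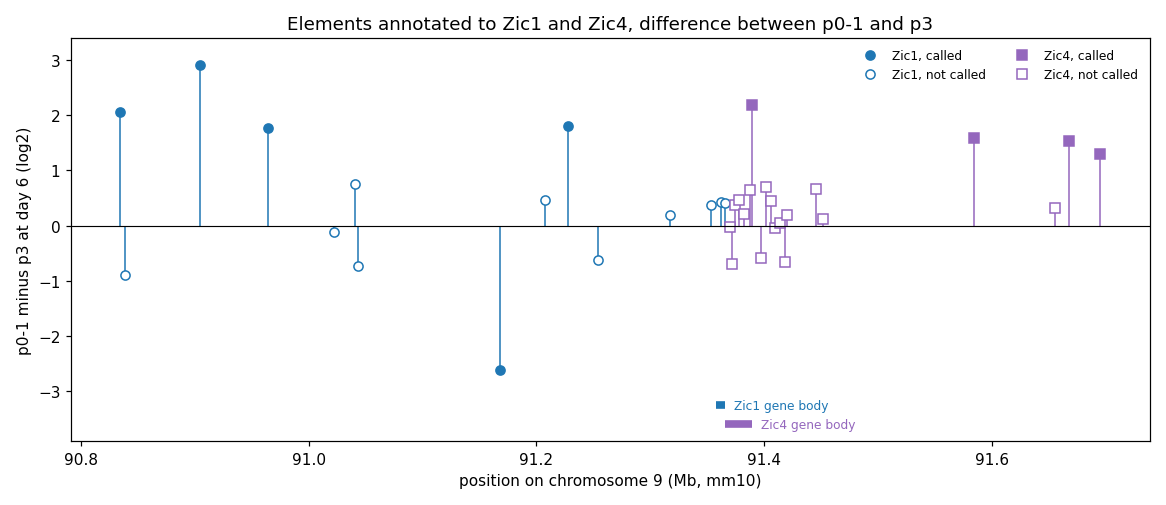
Difference between p0-1 and p3 at day 6 on the log2 scale (vertical axis, p0-1 minus p3) for the 35 elements annotated to Zic1 (circles) and Zic4 (squares), against the position of the element on chromosome 9 in Mb of mm10 (horizontal axis), with called elements filled and bars for the gene bodies. The elements with the largest differences lie away from the gene bodies, with Zic1 +461843 at 2.90 and Zic1 +197625 at -2.62.

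Zic4 starts head to head with Zic1, and its element nearest the TSS of the annotation, Zic4 +1440 in intron 1, fell from 117 ± 20.2 (SD, n = 6) to 34.4 ± 8.69 (SD, n = 5) in p0-1 between days 4 and 6 (log2 difference -1.49, SE 0.18, adjusted p = 8.6e-06). It also fell in p3 over the same days (log2 difference -1.12, called in the all-element fit). In the last exon, Zic4 +18492 (chr9:91386565-91388363) opened on leaving the NMP state. It had 149, 189 and 194 normalized counts in NMPs and lay between 334 and 717 with a median of 513 in p0-1 at day 4, where it had risen by 1.48 (SE 0.23, adjusted p = 7.2e-05), and p3 had risen by 1.24 (SE 0.14, adjusted p = 4.6e-07). Next to it, Zic4 +20677 (chr9:91389479-91389820) was the element at the transcript end. On day 6 it had 60.6, 61.7, 64.7, 79.4 and 105 in p0-1, 8.17, 10.0, 15.2 and 21.6 in pMN and 2.91, 8.08, 9.89 and 14.2 in p3, and p0-1 overlapped neither. The p2 samples (38.2 ± 15.7, SD, n = 6) overlapped p0-1 and lay above all pMN samples. The difference was 2.18 (SE 0.23, adjusted p = 8.8e-06) from p3 and 1.81 (SE 0.21, adjusted p = 8.5e-05) from pMN, the latter lost without replicate 2 (1.89), and its change from day 4 to day 6 against p3 was 1.67 (SE 0.33, adjusted p = 7.7e-04), lost without replicate 2 (1.81).

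Zic4 +36774 rose in p0-1 from 212 at day 4 to 455 at day 6 (log2 difference 1.08, SE 0.17, adjusted p = 1.3e-04), and with Msx1 -27016 made the 2 calls of 21 in that comparison, against 20.3% of all tested elements and, in the all-element fit, 15 of 54 against 21.4%. Centering (0.82), leaving out replicate 2 (0.91) or taking p0-1 of 0 nM alone at day 4 (0.87) ended the call. Zic4 +28167 rose and then fell in p0-1: its means there were 207, 92.7 and 54.1 at days 4, 5 and 6, after 25.8 in NMPs. The day 6 samples of p0-1 spread widely (SD 63.9, n = 5). The rise was 2.49 (SE 0.24, adjusted p = 7.9e-07) and the later fall -2.13 (SE 0.43, adjusted p = 7.8e-04), the fall lost without replicate 2 (-1.85). Zic4 +28167 also fell in p3 from day 4 to day 6 (log2 difference -1.71, called in the all-element fit). Beyond the gene, Zic4 +76936 fell from 63.0, 85.0 and 281 in NMPs to a mean of 5.11 in p0-1 (log2 difference -3.09, SE 0.34, adjusted p = 2.4e-06), and Zic4 +286619 fell from 48.5, 70.0 and 80.9 to a mean of 5.24 (log2 difference -2.33, SE 0.21, adjusted p = 3.4e-07). The all-element fit called 22 of 54 from NMPs to p0-1, against 41.9% of all elements. Zic4 +215426 was lowest in p3 at day 6, with 7.77, 14.2, 14.8 and 27.7 against 40.6, 50.6, 81.5, 83.7 and 95.8 in p0-1, while pMN, p2 and p0-1 overlapped (means 78.5, 72.8 and 70.5), and p0-1 differed from p3 by 1.59 (SE 0.27, adjusted p = 3.6e-04). Its change of difference was 1.51 (SE 0.34, adjusted p = 0.00224), lost without replicate 2 (1.80) or replicate 3 (1.18). In the test of that change, 1 of 21 filtered elements was called, Msx1 -27016, against 9.25%, and 9 of 54 over all elements, against 12.5%.

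Zic2 and Zic5 lie next to each other on chromosome 14 (122475384-122480328 and 122459160-122465658), both are needed for neural crest and neural tube closure, and mutations of Zic2 cause holoprosencephaly. At the Zic5 start, Zic5 +1242 (chr14:122462974-122465858, exon) had 1522, 1696 and 1709 normalized counts in NMPs. Later, on day 6, the p0-1 samples had 1031, 1271, 1484, 1510.4 and 2031, the pMN samples 869.6, 988, 1029.9 and 1149 and the p3 samples 585, 676, 739 and 790.4, with p2 between 657 and 1089 with a median of 847. All p0-1 samples lay above all p3 samples, and neighbors in the order p0-1, pMN, p2 and p3 overlapped. Its difference from p3 to p0-1 of 1.03 (SE 0.17, adjusted p = 6.6e-04) was no longer called with centering (0.93) or without replicate 2 (0.92) or replicate 3 (0.98). Upstream of Zic5 a pair of elements changed places: Zic5 -3228 fell from 432, 442 and 444 in NMPs to a mean of 123 in p0-1 (log2 difference -1.79, SE 0.23, adjusted p = 1.6e-05), and Zic5 -1305 rose from 6.74, 7.27 and 9.69 to a mean of 90.7 (log2 difference 2.38, SE 0.33, adjusted p = 2.9e-05). In p3 the differences were -1.91 and 2.01, also called.

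The single element of Zic2, Zic2 +3453 (chr14:122478603-122479071, intron 2), had 116, 133, 137, 146 and 169.5 in p0-1 and 70.4, 80.6, 99.7 and 102 in p3 at day 6, without overlap, and its difference of 0.61 (SE 0.16, adjusted p = 0.0124) was not called. The promoter of Zic2 carries an element (chr14:122473755-122476754) that the annotation gives to the noncoding RNA 2610035F20Rik on the other side of the start, so it is not among the 54 and was added after its values were seen. It had 1339.7, 1549, 1891, 1922 and 2240.4 in p0-1, 977, 996, 1049.8 and 1276 in pMN and 697, 761, 767 and 786 in p3 at day 6, and p2 lay between 775 and 1310.3 with a median of 1001. The p0-1 samples lay above all samples of the other types. The p0-1 minus p3 difference was 1.21 (SE 0.13, adjusted p = 3.3e-05) and p3 fell from day 4 to day 6 (log2 difference -1.30, SE 0.12, adjusted p = 1.7e-06), and the alternatives were not run for this element.

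Within p0-1 the 2 SAG concentrations, 0 and 10 nM, were compared with and without the pairing of samples by replicate number. Without it, limma called 0, 0 and 0 of 21 at days 4, 5 and 6, against 0.0%, 0.00315% and 0.0% of all tested elements, voom also called 0, 0 and 0, and without adjustment 3, 4 and 6 reached p under 0.05, beside 863, 4676 and 5137 of all 31744. Zic1 +137909 had 88.4, 198 and 214 normalized counts at 0 nM and 33.3, 49.5 and 156 at 10 nM on day 4, overlapping, and 35.3 and 55.5 at 0 nM and 100.2, 105 and 117 at 10 nM on day 6, not overlapping. The 10 minus 0 nM difference was -1.12 (SE 0.50, adjusted p = 0.716) at day 4 and 1.08 (SE 0.24, adjusted p = 0.0996) at day 6, neither of them called. With the replicate block, whose numbers pair the samples at days 4 and 5, 1 of 21 and 483 of 31744 of all tested elements were called at day 4, and 0 and 221 of 31744 at day 5. The call of day 4 was Zic1 +137909, at -1.12 (SE 0.22, adjusted p = 7.2e-04). Day 6 has 2 pairs, too few to show a pairing. There the block with the title numbers called the same element in the other direction, at 1.09, and the block with the description numbers did not. Whether the effect of SAG differed between the days was not tested. Zic4 +18492 had 711 and 744 at 0 nM and 345, 466 and 488 at 10 nM on day 6, a difference of -0.75 (SE 0.18, adjusted p = 0.109).

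Other genes of the dorsal and ventral neural tube and of the BMP pathway gave the setting of these loci. At day 6 the filtered fit of p0-1 against p3 had 15 higher and 3 lower of 76 (median difference 0.29) elements called at 13 dorsal genes such as Pax3, Pax7 and Gsx1, 11 higher and 2 lower of 66 (median difference 0.19) at 19 genes of the BMP pathway and 5 higher and 23 lower of 55 (median difference -0.91) at the 7 ventral genes with an element, while 3428 were higher and 2302 lower of all 31744 tested elements, with a median of 0.09. Like Msx1 -27016, called elements of Gbx2 and Lmx1a were lower in p0-1 than in p3, while other elements of Lmx1a were called higher. At day 4 the dorsal list had 5 higher and 2 lower of 76 (median difference 0.17), the BMP list 2 higher and 0 lower of 66 (median difference 0.06) and the ventral list 3 higher and 9 lower of 55 (median difference -0.22), beside 1094 higher and 865 lower of all tested elements and a median of 0.03.

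Over the 25 condition means, 22 of the 54 elements were highest in NMPs (31.9% of all elements were), 16 in p0-1 (20.1%), 10 in p3 (22.3%), 5 in p2 (11.2%) and 1 in pMN (14.6%). Among the 33 members whose pairs were compared, the most alike were Zic1 +3787 and Zic4 +9424 (Pearson r 0.936 over 25 conditions) and Zic4 +9424 and Msx3 +246 (r 0.918), while Zic4 +1440 ran against Zic1 +325106 (r -0.883) and Msx1 -27016 against Msx3 -13015 (r -0.870) and Zic5 +1242 (r -0.867). Outside the members, Zic5 +1242 was most like the Zic2 promoter element (r 0.980), then elements of Spaca7 (r 0.931) and Ing2 (r 0.930). Zic1 +137909 was most like elements of Abr (r 0.956), Rgs3 (r 0.953) and Nek9 (r 0.940), and Msx2 +7690 most like those of Olfm2 (r 0.924), Pax2 (r 0.921) and Cdk5r2 (r 0.916). These correlations are descriptions, since the conditions share the course of differentiation.

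In windows of 300 bases around the element centers, read on both strands, 6 short motifs were searched. The GLI motif GACCACCCA was in 0 of 54 windows (in 0.392% of all 111638), the FOX motif TGTTTAC in 4 (4.96%), the SOX motif CATTGTT in 5 (7.60%), TAATTG, of the kind homeodomains such as MSX1 bind, in 7 (11.5%), the TCF/LEF motif CTTTGAT in 3 (5.04%) and the E-box CACCTG in 13 (18.7%). These shares are near those of all windows. The windows of 4 elements are shown, the pair upstream of Msx1 that was higher in p3 and a pair of distal Zic1 elements that was lower, chosen after their values were seen, from the plus strand of mm10 (GRCm38), with matches in capitals: Msx1 -27016 (chr5:37851452-37851751) holds 1 match of TAATTG on the minus strand, Msx1 -24670 (chr5:37849106-37849405) 1 of TGTTTAC, Zic1 +461843 (chr9:90903807-90904106) 1 of CACCTG, and Zic1 +137909 (chr9:91227741-91228040) none of the 6.
Msx1 -27016: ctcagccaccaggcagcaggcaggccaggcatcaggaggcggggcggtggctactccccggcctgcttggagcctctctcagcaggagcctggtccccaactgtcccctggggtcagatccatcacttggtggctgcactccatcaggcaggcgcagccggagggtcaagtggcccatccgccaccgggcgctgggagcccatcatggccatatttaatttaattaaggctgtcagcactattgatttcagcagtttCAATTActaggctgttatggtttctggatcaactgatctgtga
Msx1 -24670: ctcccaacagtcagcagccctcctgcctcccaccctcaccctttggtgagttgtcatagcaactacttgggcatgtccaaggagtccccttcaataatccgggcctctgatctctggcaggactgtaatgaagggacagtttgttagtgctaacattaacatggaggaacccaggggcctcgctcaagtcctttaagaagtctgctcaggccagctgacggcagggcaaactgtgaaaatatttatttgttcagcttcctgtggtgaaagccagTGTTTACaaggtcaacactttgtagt
Zic1 +461843: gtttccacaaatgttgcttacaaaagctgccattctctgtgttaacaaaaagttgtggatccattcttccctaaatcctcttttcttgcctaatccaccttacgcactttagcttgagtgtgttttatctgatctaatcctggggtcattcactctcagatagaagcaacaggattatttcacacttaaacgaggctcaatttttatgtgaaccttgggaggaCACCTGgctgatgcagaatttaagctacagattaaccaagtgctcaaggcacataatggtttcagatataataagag
Zic1 +137909: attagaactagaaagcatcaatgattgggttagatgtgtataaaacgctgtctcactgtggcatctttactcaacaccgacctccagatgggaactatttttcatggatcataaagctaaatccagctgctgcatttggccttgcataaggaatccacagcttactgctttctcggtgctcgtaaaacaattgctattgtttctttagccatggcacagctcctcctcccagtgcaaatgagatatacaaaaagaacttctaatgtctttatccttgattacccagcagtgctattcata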

How the data were processed

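The authors mapped reads to mm10 and deposited CaTS-ATAC values for 67 samples as log2 values from the variance-stabilizing transformation of DESeq2, with HOMER coordinates, TSS distance and nearest gene per element. Inverting the transformation gave normalized counts and reads, and all recovered values below 1000 reads were within 0.001 of whole numbers. The members and the gene lists were chosen with earlier results of these data known. Differences were tested on the log2 values by limma 3.58.1 (R 4.3.3, two-sided, variance trend), each fit holding the groups compared alone, with SAG concentrations pooled unless compared. Samples of the same cell type, day and replicate number from different SAG concentrations counted as separate samples in the pooled fits. In p0-1 the deviations of such samples correlated (median r 0.56 at day 4 and 0.74 at day 5). Standard errors and adjusted p of the pooled fits do not allow for this and may be too small. Benjamini-Hochberg adjustment ran over 31744 elements whose mean over all samples exceeded 100 normalized counts, or over all 111638 for elements under that minimum. Called means adjusted p below 0.01 together with a log2 difference beyond 1 in either direction. The fits were checked on simulated data.

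By rule, the report names for each gene the element nearest the TSS, the called elements with the largest rise and fall in p0-1 against p3 at day 6 and in NMP to p0-1, and those called between SAG concentrations. All other named elements were chosen after their values were seen, among them Msx2 +10168, Msx3 -9089, Msx3 -13015, Zic1 +3787, Zic4 +9424, Zic4 +36774 and all under the minimum except Zic4 +1440. Deviations from group means of samples with the same replicate number correlated above 0.1 in every pair for p0-1 against p3 at days 5 (lowest r 0.392) and 6 (0.219), pMN at days 4 (0.275) and 6 (0.565), p2 at day 6 (0.506) and the SAG comparisons of days 4 (0.405) and 5 (0.637). There the numbers were taken to pair the samples. At day 6 each p3 and pMN condition holds only replicates 2 and 3, whose deviations mirror each other. The r values of these comparisons at day 6 are thus weak evidence of a pairing. Titles and descriptions differ in the replicate number of 15 samples, and the titles were used. Alternatives left out replicates or changed the threshold, filter, scaling or model, and those leaving out samples that stood apart were added after the data were seen. Sequences were read with pysam 0.24.0 and figures drawn with matplotlib 3.10.9.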

Additional observations from a re-analysis of the deposited data

Results flagged for a closer look

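The gap of the highest or lowest sample to its nearest neighbor, as a share of the range of its group, was unusually large in 21 of 396 sets of 4 to 6 samples, near the 1 in 20 that chance gives. In p3 at day 4, replicate 1 of 500 nM was lowest at 5 elements: Msx1 -831 (share 0.821, 747 against 1014 to 1084 normalized counts in the others), Msx2 +118 (0.892, 347 against 470.2 to 488), Msx2 -3218 (0.760, 149.8 against 209.9 to 233), Msx2 +10168 (0.800, 219 against 356 to 402) and Zic1 +559 (0.859, 679 against 940.1 to 991). At other elements of p3 at day 4, a sample from 100 nM was low at Msx1 -11483 (0.743), Zic1 +197625 (0.793) and Zic4 +286619 (0.796). In pMN a sample stood apart at day 4 at Zic4 +286619 (0.668), at day 5 at Msx3 +246 (0.739), Zic1 +137909 (0.794), Zic5 +1242 (0.774) and Zic4 +76936 (0.752), and at day 6 at Zic1 +3787 (0.893). In p2 it did so at day 5 at Zic1 +461843 (0.756) and at day 6 at Zic2 +3453 (0.640), Msx1 -11483 (0.632) and Zic1 +325106 (0.672). In p0-1 it did so at day 5 at Msx3 -9089 (0.700) and at day 6 at Msx2 +7690 (0.773, 229 against 132 to 149.5 normalized counts), and in p3 at day 5 at Zic1 +531620 (0.867).

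The p0-1 minus p3 difference changed between days 4 and 6, by a test of that change on the log2 scale, at Msx1 -27016 (-2.22) and, in the fit of all elements, at Zic1 +461843 (2.06), Zic1 +401526 (1.80), Zic1 +197625 (-1.37), Zic4 +20677 (1.67) and Zic4 +215426 (1.51).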

How the results depend on the processing

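No alternative reversed a direction. Over 44 differences of filtered elements, 436 alternative values kept the side of the threshold, 54 lost the call and 4 gained it, and over 40 differences from the fit of all elements 317 kept it and 43 lost it. Gains at differences outside these 44, such as Msx3 -9089 from NMPs to p0-1 with centering, are not in the 4. The counts below are members called, with the number called of all tested elements in brackets for the settings whose share the report does not give, and the cause of a change was not tested unless the alternative itself changes which elements or samples are tested. With a threshold of 2 on the log2 scale, p0-1 against p3 gave 1 at day 5 (all: 1590 of 31744) and 1 at day 6 (all: 2398 of 31744), pMN at day 6 0 (all: 443 of 31744), NMP to p0-1 1 (all: 6495 of 31744), NMP to p3 1 (all: 6183 of 31744), p0-1 from day 4 to 6 0 (all: 2251 of 31744) and p3 1 (all: 1866 of 31744). Without the filter, which adds elements, p0-1 against p3 gave 2 (all: 7641 of 111638), 9 and 13 at days 4, 5 and 6, pMN at day 6 7, p2 2 (all: 5917 of 111638), NMP to p0-1 22, NMP to p3 27 (all: 50393 of 111638), p0-1 over days 15, p3 over days 17 and the change of difference 9. Filtering on the samples compared gave 5 against p3 at day 6 (all: 7540 of 32580), 2 for pMN at day 6 (all: 3833 of 32346), 9 for NMP to p3 (all: 13388 of 31146), 4 for p0-1 over days (all: 6398 of 30684) and 6 for p3 over days (all: 7107 of 31266). Voom gave 10 for NMP to p3 (all: 14211 of 31744) and 4 for p3 over days (all: 7150 of 31744). A single fit of all samples gave 1 against p3 (all: 2463 of 31744) and 1 against pMN (all: 1332 of 31744) at day 4 and 2 against pMN at day 6 (all: 3541 of 31744). Centered samples gave 5 for NMP to p0-1, with Msx3 -9089 gained (1.19), and 2 against p3 at day 6 (all: 5730 of 31744). They gave 5 for NMP to p3, with Msx1 -27016 gained (1.22, also with voom at 1.35 and without replicate 2 at 1.07). Over days they gave 0 for p0-1 and 5 for p3. They changed the split of all called elements from 9166 higher and 3663 lower to 9951 higher and 1977 lower for NMP to p0-1, from 8978 higher and 4370 lower to 10068 higher and 2205 lower for NMP to p3, from 4495 higher and 1939 lower to 3416 higher and 3000 lower for p0-1 over days and from 4306 higher and 2366 lower to 3540 higher and 3371 lower for p3 over days. The replicate block gave 2 for pMN at day 6, 5 for p3 over days (all: 6803 of 31744), 1 for SAG at day 4 and 1 for SAG at day 6 (all: 1066 of 31744). With the numbers of the descriptions it gave 1 for pMN at day 6 (all: 3179 of 31744), 7 for NMP to p3 (all: 13491 of 31744), 3 for p3 over days (all: 6751 of 31744), 1 for SAG at day 4 and 0 at day 6 (all: 1546 of 31744). In p3 over days and SAG at day 6 the samples may share only a number. Where the numbers were taken to pair the samples, the block changed no other member's call. With p0-1 of 0 nM alone at day 4, 1 was called against p3 (all: 2736 of 31744), 10 from NMPs and 0 over days (all: 5659 of 31744), and without replicate 3 of p2 at day 6 in 100 nM the count against p2 was 1. Leaving out each replicate number gave 1 to 4 against p3 (all: 4323 to 5439), 0 to 2 against pMN (all: 713 to 2776) and 0 to 1 against p2 (all: 2 to 1423) at day 6, 4 to 11 for NMP to p0-1 (all: 10908 to 14346), 6 to 11 for NMP to p3 (all: 12795 to 13734), 1 each time for p0-1 over days (all: 4478 to 6663), 2 to 5 for p3 over days (all: 6328 to 7080), and 0 to 1 (all: 0 to 284) and 0 to 1 (all: 0 to 1354) for SAG at days 4 and 6. Where this left a single sample, it was assumed to vary like the others.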
